A study of Sus scrofa with 6 samples.

Results

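Small RNA genes of the nuclear genome were followed in the longissimus muscle, the long muscle of the back, of 3 pigs (Sus scrofa) with high intramuscular fat and 3 pigs with low intramuscular fat, the fat stored inside the muscle. Each pig gave 1 RNA-seq library, and the groups differ by fat content alone in the labels, with no treatment or genotype given. The sources used here give no breed, sex or age. The genes were taken as the records of the deposited gene table that are not mitochondrial and span under 150 bases, which held for 99 of 7661 records. Their spans ran from 35 to 145 bases with a median of 87 bases. The longest records inside that limit were ENSSSCG00000025715 at 145 bases and SNORA4 at 142 bases, and the first outside it were SNORA62 and SNORD15 at 150 bases each.

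The names and descriptions bore out most, but not all, of the set as small RNA genes. There were 32 box C/D small nucleolar RNAs (snoRNAs), 16 box H/ACA snoRNAs and 5 snoRNAs whose box the table does not tell. A further 4 records were microRNA (miRNA) genes, 3 were U6 small nuclear RNAs and 2 were 5S ribosomal RNAs. The remaining 36 records carried no symbol and are given by their Ensembl identifiers alone, and 1 record was a protein-coding fragment of 72 bases listed as VEGF. Coordinates below are those of the deposited table, for which the sources used here name no genome build.

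SnoRNAs work in the nucleolus, where box C/D RNAs guide the 2'-O-methylation of ribosomal RNA and box H/ACA RNAs guide its pseudouridylation. Most vertebrate snoRNAs lie in introns of other genes, many of them genes for ribosomal proteins and translation factors, and are trimmed out of the spliced intron. U6 is the small nuclear RNA at the catalytic centre of the spliceosome, 5S rRNA is a component of the large ribosomal subunit, and miRNAs pair with messenger RNAs to repress them. In mammalian muscle miR-208b is encoded inside the slow myosin heavy chain gene MYH7 and is known for its part in keeping slow fibres slow.

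The position of these genes in the table followed that scheme. Of the 99 records, 86 lay inside a longer listed record, 80 of them on the same strand and 6 on the opposite strand. Ribosomal protein genes contained 41 of them in 21 gene records, translation factor genes contained 9 in 5, other named genes 29 in 23, and records without a symbol 7 in 4. The other 13 were contained in no listed record. In every pair of containing and contained record, the containing record had at least as many reads in all 6 libraries, which held for 81 of 81 same-strand and 12 of 12 opposite-strand pairs with a small RNA record inside. It held as well for 103 of 103 same-strand and 173 of 173 opposite-strand pairs whose inner record was 150 bases or longer. The strand setting is not named, and a longer record can hold more reads than a short one under any setting. A read over a small RNA record therefore cannot be assigned to 1 gene or 1 strand from these counts. The design text speaks of mRNA profiles, and mature snoRNAs, miRNAs and U6 carry no poly(A) tail. Whether the reads came from mature small RNAs or from the pre-mRNA around them was not tested.

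Each small RNA record had reads in all 6 libraries. Library totals ran from 25371989 to 28874691 reads in the high group and from 30139025 to 34813172 reads in the low group, and a small RNA record had between 160 and 15040 reads in a library. Together the 99 records took 0.582%, 0.693% and 0.572% of the reads of high pigs 1, 2 and 3, against 0.565%, 0.744% and 0.827% in low pigs 1, 2 and 3. The mean share was 0.616% ± 0.0669 in the high group and 0.712% ± 0.134 in the low group (SD, n = 3 each), and the groups overlapped. The tissue label matched the defining markers, since the 7 listed muscle fibre marker records averaged between 3031 and 32460 counts per 1000000 reads of the library total (CPM). The fat droplet coat gene PLIN1 had 27.2, 39.9 and 60.3 CPM in high pigs, against 8.13, 5.10 and 5.81 CPM in low pigs.

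Libraries did not contribute evenly. Low pig 3 had the highest CPM of the 6 libraries for 63 of the 99 small RNA records, and for 40 of the 41 inside ribosomal protein genes. Over the whole table the same library was the highest for 14.3% of records and the lowest for 33.5%. The lowest value of a small RNA record was most often that of high pig 1, in 37 of 99 records. Medians over the set and over its snoRNA and unnamed classes are therefore also given without low pig 3. So are many single fold changes, below or in the closing section.

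**Figure D1:**
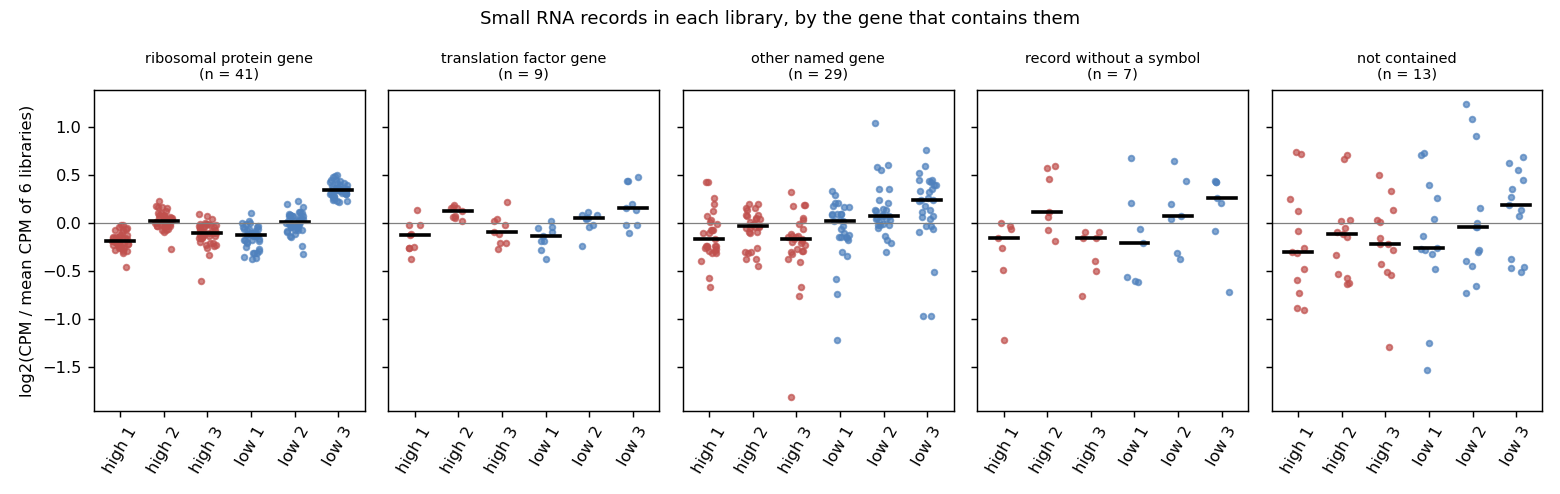
CPM of each small RNA record in each library relative to its own mean over the 6 libraries, on a log2 scale, in panels by the kind of gene that contains the record (high pigs left in red, low pigs right in blue, 1 point per record, bar at the median). In the ribosomal protein panel low pig 3 stands at a median of 0.34 while the other 5 libraries have medians between -0.19 and 0.02.

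No small RNA record passed the test between high and low intramuscular fat. With edgeR's quasi-likelihood test and Benjamini-Hochberg adjustment over all 7661 records, 0 of 99 had an adjusted p under 0.05, while 11 records of the whole table, or 0.144%, did. DESeq2 and edgeR's exact test also called 0 of 99, against 6.77% and 4.12% of all records. At an unadjusted p under 0.05 there were 8 small RNA records, 6 lower and 2 higher in the high group, or 8.08% beside 18.5% of all records (8.3% lower and 10.2% higher). DESeq2 had 11, beside 20.2% of all records, and the exact test 6, beside 14.6%, at that level. At an adjusted p under 0.1 the quasi-likelihood test still had 0 of 99, beside 1.01%. The share below an unadjusted 0.05 was thus smaller among small RNA records than in the table as a whole.

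Their fold changes lay mostly just below 0. The median log2 fold change, high over low, was -0.15 over the 99 records and -0.04 over all records, and 82 of 99 lay below 0, or 82.8% beside 54.8% of the table. Without low pig 3 the median was 0.02 and 45 of 99 lay below 0, so that this lean depended on 1 library. CPM values of the groups did not overlap in 11 of 99 records, 10 lower and 1 higher in high pigs, which is 11.1% beside 24.2% of all records (13.7% lower and 10.4% higher). The smallest p that an exact permutation of 3 against 3 libraries can give is 0.1.

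**Figure D2:**
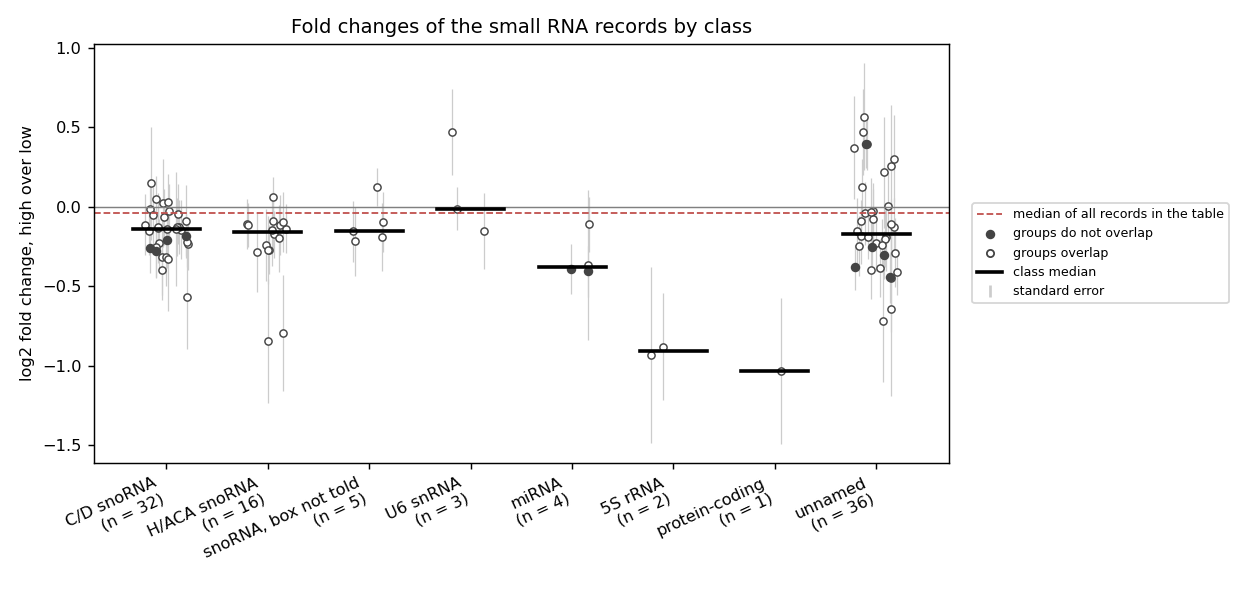
Log2 fold change, high over low, of all 99 small RNA records by class, with standard errors, class medians as black bars and the median of all 7661 records as a dashed line. Filled points are the 11 records whose groups do not overlap. The medians of the snoRNA classes lie between -0.16 and -0.14, while both 5S rRNA records and the VEGF fragment lie near -1 with wide errors.

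Of all records 54.8% lay below 0, 24.2% had groups that did not overlap (13.7% lower) and 0.144% passed the quasi-likelihood test. The 32 box C/D snoRNAs had a median log2 fold change of -0.14, with 28 below 0, or 87.5%. Groups did not overlap in 4 of these snoRNAs, or 12.5%, all lower in high pigs, and 0 passed the test. The 16 box H/ACA snoRNAs had a median of -0.16, with 15 below 0, or 93.75%, and 0 not overlapping. Without low pig 3 the medians were 0.04 and 0.03. The 5 snoRNAs of untold box had a median of -0.16, and 0.09 without that library. In bulk muscle, fewer cells of a type and less RNA per cell cannot be told apart.

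Records inside ribosomal protein genes had fold changes close to those of the genes. The 41 records had a median log2 fold change of -0.16 and the 21 genes around them -0.18, while the 66 ribosomal protein records that contain none of them had -0.14. Without low pig 3, 13 of the 41 lay below 0, with a median of 0.07. SNORA65, an H/ACA RNA inside RPL12, had 42.4, 47.4 and 46.7 CPM in high pigs, against 43.6, 47.3 and 57.2 CPM in low pigs. The groups overlapped and the log2 fold change of SNORA65 was -0.11 ± 0.16 (standard error, as for all fold changes below), beside -0.11 for RPL12. Its counts were between 20.7% and 21.5% of those of RPL12 in every library, which is the steadiest share of the 86 contained records (coefficient of variation 1.34%, beside a median of 5.37% and a highest of 38.4%). SNORA65 was chosen after its values were seen. The count of a containing gene may include the reads over the records inside it, so their values need not be independent.

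The RPL13A gene holds 4 listed C/D snoRNAs, SNORD34, SNORD35 and 2 records named SNORD33. RPL13A snoRNAs of this group are known from hamster and mouse cells as mediators of the response to lipid overload. SNORD33 (ENSSSCG00000025540) had 36.3, 39.8 and 37.5 CPM in high pigs, against 40.2, 42.9 and 55.1 CPM in low pigs. All 3 high pigs lay below all 3 low pigs, with a log2 fold change of -0.28 ± 0.17 and an adjusted p of 0.411. That fold change was -0.06 without low pig 3. SNORD35 had 70.0, 82.7 and 67.8 CPM in high pigs, against 79.9, 80.98 and 97.9 CPM in low pigs, and overlapped. The other SNORD33 record and SNORD34 had log2 fold changes of -0.16 and -0.23, with adjusted p-values of 0.591 and 0.466. RPL13A itself had -0.23, and the 4 records together held 21.9% to 24.2% of its counts.

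In most genes with several snoRNAs the share of the gene's counts that fell in them was nearly fixed. The 3 records inside RPS12 (SNORD100, SNORD101 and SNORA33) together had 72.5%, 73.7% and 73.1% of the RPS12 count in high pigs, against 71.8%, 72.5% and 72.7% in low pigs. The 5 inside RPL4, which are 3 SNORD18 and 2 SNORD16 records, had between 23.0% and 25.9%. The 4 inside EIF4A2, a helicase of translation initiation, had between 19.5% and 20.9%. Over all 86 contained records the coefficient of variation across the 6 libraries had a median of 5.37% for the share of the containing record's count and 15.6% for the CPM. It was smaller for the share in 85 of the 86. The containing record's count may include the reads over the small record, which would make a steady share partly built in.

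**Figure D3:**
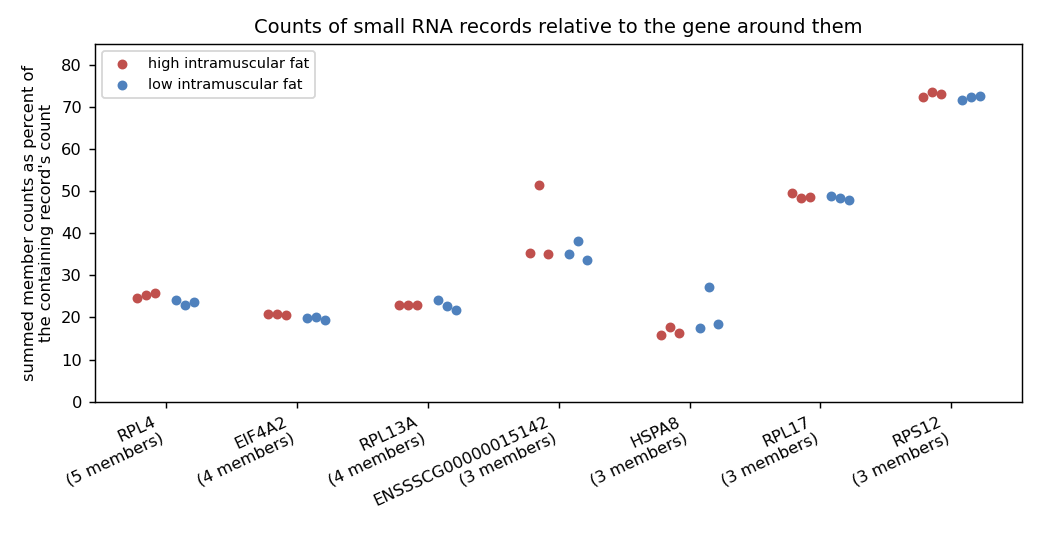
Summed read counts of the small RNA records inside 1 gene as a percent of that gene's count, per library, for 7 genes with 3 or more of them (high pigs left in red, low pigs right in blue). RPS12 stays between 71.8% and 73.7%, while the SNORD14-bearing records ENSSSCG00000015142 and HSPA8 each have 1 library apart, high pig 2 at 51.6% and low pig 2 at 27.3%.

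Fold changes followed the same pattern. The log2 fold change of a contained record differed from that of its containing record by a median of 0.06 in absolute size, by at most 0.2 in 75 of 86, and had the same sign in 75 of 86. Across the 86 records Pearson's r was 0.80 and Spearman's rho 0.66, given as a description because each pair may share reads. The differences ran from -0.42 for SNORD14 (ENSSSCG00000023466) inside HSPA8 to 0.39 for ENSSSCG00000024515 inside ENSSSCG00000015142.

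**Figure D4:**
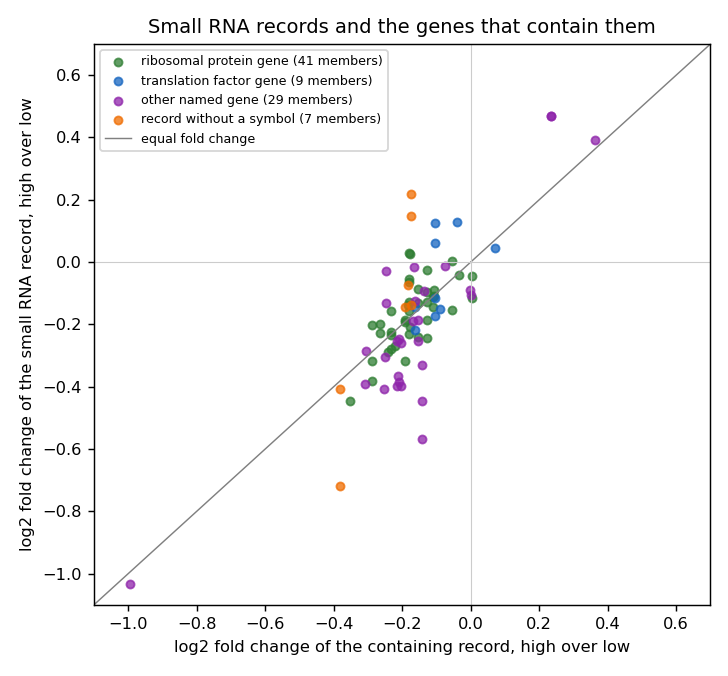
Log2 fold change, high over low, of each of the 86 contained small RNA records (vertical) against that of the record that contains it (horizontal), coloured by the kind of containing gene. Points lie along the line of equal fold change, and those farthest from it are in HSPA8 and in 2 records without a symbol.

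SNORD14 records on chromosome 9 lay among the most abundant snoRNAs listed and in the 2 genes whose share varied most in the plot of shares. SNORD14 (U14) is a C/D RNA known from yeast to be needed for processing of 18S rRNA, and HSPA8 encodes the constitutive Hsc70 chaperone. Per 100 bases of span, SNORD14 (ENSSSCG00000023564) had the highest mean level of the whole set, at 330 CPM. It had 248, 381 and 163 CPM in high pigs, against 183, 318 and 372 CPM in low pigs, a log2 fold change of -0.14 ± 0.36 with an adjusted p of 0.850. The spread within each group was far wider than the difference between them.

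HSPA8 and the symbol-less record ENSSSCG00000015142 each hold 3 small RNA records, of 87, 86 and 84 bases in both, and each record in 1 lies 101814 bases from its equal in the other. Inside HSPA8 the 3 log2 fold changes were -0.45, -0.57 and -0.33, and inside ENSSSCG00000015142 they were 0.22, 0.15 and -0.14. The second of those in HSPA8, SNORD14 (ENSSSCG00000023466), had -0.34 without low pig 3. Without that library ENSSSCG00000024515, SNORD14 (ENSSSCG00000027624) and SNORD14 (ENSSSCG00000023564) in ENSSSCG00000015142 had 0.67, 0.58 and 0.15. Summed over the 86-base pair of SNORD14 records, the level was 322, 471 and 236 CPM in high pigs, against 241, 382 and 495 CPM in low pigs. The sums of the 87-base pair averaged 335 ± 104 CPM in high pigs and 344 ± 123 CPM in low pigs (SD, n = 3 each). These summed levels overlapped between the groups. Whether reads were shared between these equal-length records was not tested.

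A second such layout lay on the same chromosome. RPL27A and the symbol-less record ENSSSCG00000022059 each contain 1 unnamed record of 129 bases and 1 of 130 bases, set 172512 bases apart. ENSSSCG00000022793, inside ENSSSCG00000022059, had 61.2, 81.3 and 76.9 CPM in high pigs, against 98.8, 116 and 80.99 CPM in low pigs. High pig 2 lay just above low pig 3, and the log2 fold change was -0.41 ± 0.14 with an adjusted p of 0.210, the lowest of the 99. ENSSSCG00000024440 in RPL27A had 59.1, 83.1 and 68.4 CPM in high pigs, against 87.3, 94.9 and 94.2 CPM in low pigs, with no overlap, -0.38 ± 0.14 and an adjusted p of 0.227. Summed, the 130-base pair had 73.1, 112 and 98.8 CPM in high pigs, against 139, 146 and 114 CPM in low pigs, which did not overlap. The 129-base pair averaged 142 ± 15.8 CPM in high pigs and 178 ± 14.9 CPM in low pigs, and did not overlap either. These sums were formed after their values had been seen and carry no test.

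The H/ACA snoRNAs with the lowest fold changes were a pair outside any listed gene. The 2 SNORA42 records of 138 bases on chromosome 15 lie 56441 bases apart, at 133359013 to 133359150 and 133415454 to 133415591. The first (ENSSSCG00000020722) had 13.8, 11.1 and 12.7 CPM in high pigs, against 27.9, 10.8 and 26.4 CPM in low pigs. Low pigs 1 and 3 were far above low pig 2, which was below all 3 high pigs, and the log2 fold change was -0.80 ± 0.37 with an adjusted p of 0.297. The second had -0.84 ± 0.39. PNKD, the nearest listed gene to the first record at 8516 bases, had 12.2, 10.2 and 11.1 CPM in high pigs and 24.1, 9.69 and 23.0 CPM in low pigs, the same split of libraries. The third SNORA42, inside SSR4 on chromosome X, had -0.29 ± 0.25. The pair was picked after its values had been seen.

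SNORA70 was the most abundant H/ACA record. It had 172, 211 and 177 CPM in high pigs, against 169, 229 and 280 CPM in low pigs, with a log2 fold change of -0.27 ± 0.22 and an adjusted p of 0.512. The fold change of SNORA70 was -0.02 without low pig 3 and -0.43 without low pig 1. The symbol-less record ENSSSCG00000030410, which ends 607 bases before it, had 175, 213 and 179 CPM in high pigs and 171, 230 and 281 CPM in low pigs. The 2 records, which do not overlap in the table, thus had nearly the same CPM in every library. Next in level were SNORA27 in RPL21, at 92.9 ± 7.13 CPM in high pigs and 99.6 ± 19.8 CPM in low pigs, and SNORA21 in RPL23, at 67.7 ± 7.03 CPM in high pigs and 77.7 ± 18.4 CPM in low pigs (SD, n = 3 each).

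Among C/D snoRNAs whose groups did not overlap, SNORD20 lies in NCL, the gene of the nucleolar protein nucleolin. It had 8.51, 9.84 and 9.07 CPM in high pigs, against 10.2, 11.03 and 11.8 CPM in low pigs, a log2 fold change of -0.26 ± 0.16 with an adjusted p of 0.396. The SNORD20 fold change was -0.14 without low pig 3. The unnamed 80-base record ENSSSCG00000029809, inside a second NCL record on an unplaced scaffold, differed from it by at most 0.562% in any library. That unnamed record had a log2 fold change of -0.25, and -0.14 without low pig 3. SNORD14 in RPS13 (ENSSSCG00000018117, -0.21) also did not overlap; it fell outside the naming rule and is given because its values were seen not to overlap. Of the 99 records, 8 fell in 4 pairs that agreed within 5% in all libraries, which leaves 95 distinct sets of values. The members of a pair cannot count as separate observations.

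Of the listed genes for proteins that build snoRNA particles, none passed the test, and all had fold changes below 0. Fibrillarin (FBL), NOP58 and NHP2L1 belong to the box C/D particle, dyskerin (DKC1), NHP2 and NOP10 to the H/ACA particle, and RUVBL1, RUVBL2, NOLC1 and coilin (COIL) to its assembly or to nucleoli and Cajal bodies. Records were matched by symbol alone, and RUVBL1 and NAF1 each occur more than once among the 14. Whether records that share a symbol are the same gene was not tested. All 14 listed records of this list had a log2 fold change below 0, with a median of -0.36 beside -0.04 for all records. None of the 14 had an adjusted p under 0.05 in the quasi-likelihood test, where 0.144% of all records did, and 7 had an unadjusted p under 0.05, beside 18.5% of all records (8.3% lower). The groups did not overlap in 8 of the 14, beside 24.2% of all records. DESeq2 called COIL and RUVBL2, and called 6.77% of all records.

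COIL had 7.73, 7.84 and 10.1 CPM in high pigs, against 13.3, 14.1 and 12.4 CPM in low pigs, with a log2 fold change of -0.61 ± 0.16 and an adjusted p of 0.142. DKC1, the pseudouridine synthase, had 14.98, 15.96 and 13.96 CPM in high pigs, against 16.5, 24.4 and 24.8 CPM in low pigs, with -0.54 ± 0.19 and an adjusted p of 0.215. FBL, the methyltransferase, overlapped between groups and had -0.40 ± 0.17. Without low pig 3 all 14 remained below 0, with a median of -0.25. In the fit of all 6 libraries 4 of 5 fat cell marker records lay above 0, with a median log2 fold change of 1.17. There the triglyceride lipase ATGL had -0.02 with overlap. All 9 fibroblast marker records lay above 0 in that fit, with a median of 0.88. Their part in these results was not tested.

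The U6 records showed no common direction. U6 in PCBP2 (ENSSSCG00000020211) had 14.8, 19.5 and 17.8 CPM in high pigs, against 17.8, 18.1 and 17.1 CPM in low pigs, and a log2 fold change of -0.01 ± 0.14. U6 in EIF3E had 14.0, 19.0 and 18.6 CPM in high pigs, against 14.9, 17.9 and 24.6 CPM in low pigs, and -0.15 ± 0.24. U6 in PHKB (ENSSSCG00000025177), a subunit gene of the kinase that activates glycogen breakdown, had 14.0, 10.1 and 11.8 CPM in high pigs, against 11.1, 10.2 and 5.31 CPM in low pigs. Low pig 3 was lowest there, and the log2 fold change was 0.47 ± 0.27 with an adjusted p of 0.380, beside 0.23 for PHKB. It was 0.24 for this U6 record without low pig 3. The unnamed record ENSSSCG00000027001 in PHKB had identical counts in all 6 libraries.

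Of the proteins around spliceosomal RNAs, 30 listed snRNP records had a median log2 fold change of -0.18 with 25 below 0, and 20 records of snRNA assembly and processing had -0.14. None of either list passed the quasi-likelihood test, which called 0.144% of all records. Groups did not overlap in 40% of the 30, 11 lower and 1 higher in high pigs, beside 24.2% of all records. For the 20 it was 25%, 4 lower and 1 higher. DESeq2 called 1 of the 30 and 0 of the 20, beside 6.77% of all records, the 1 being LSM7, a ring protein bound to U6, with a log2 fold change of -0.53. LSM7 had 8.95, 9.37 and 9.18 CPM in high pigs, against 12.7, 13.1 and 14.6 CPM in low pigs, and a quasi-likelihood adjusted p of 0.155. The groups did not overlap.

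Both 5S rRNA records lie on chromosome 7 among the swine leukocyte antigen (SLA) class I genes. The first, at 24698827 to 24698937 (ENSSSCG00000023567), had 136, 179 and 154 CPM in high pigs, against 162, 478 and 247 CPM in low pigs. Low pig 2 stood far above all others, the groups overlapped, and the log2 fold change was -0.88 ± 0.34 with an adjusted p of 0.232. The authors' deposited table gives this record a false discovery rate of 0.0819, the lowest of the 99, and 0 of the 99 are in the authors' shorter list of called genes. The second, at 24650159 to 24650269 (ENSSSCG00000030604), had 135, 196 and 82.9 CPM in high pigs, against 85.3, 479.5 and 245 CPM in low pigs, with -0.93 ± 0.56 and an adjusted p of 0.392. Without low pig 2 the fold changes were -0.43 and -0.32.

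The antigen-presenting class I genes beside them varied in the same way. SLA-9, 6091 bases from the first 5S record, had 186, 226 and 214 CPM in high pigs, against 231, 625 and 348 CPM in low pigs, and a log2 fold change of -0.91 ± 0.31 with an adjusted p of 0.197. SLA-3, 4836 bases from the second, had 264, 362 and 252 CPM in high pigs, against 235, 773 and 414 CPM in low pigs, and -0.66 ± 0.37. Low pig 2 was the highest library for both SLA genes, as it was for both 5S records. Among 20 listed records for RNA polymerase III and for partners of 5S, Y and vault RNAs, 0 passed the quasi-likelihood test and the median was -0.15. At an unadjusted p under 0.05 in that test there were 6, 4 lower and 2 higher in the high group, beside 18.5% of all records. Groups did not overlap in 50% of the 20, 8 lower and 2 higher in high pigs, beside 24.2% of all records. DESeq2 called MVP, the major vault protein, with -0.70, and TEP1, a vault and telomerase component, with 0.58. The 5 listed partners of 7SK RNA had a median of -0.12 and 0 passed by either tool. The quasi-likelihood test called 0.144% of all records and DESeq2 6.77%.

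Records named as miRNA genes were few. Of 24 miRNAs known from muscle or fat cells, looked up by symbol, only MIR208B was found. The 36 records without a symbol could not be matched this way, so the absence of the other miRNAs is not shown. Every listed record has a CPM above 10 in at least 3 libraries. MIR208B, at 81071323 to 81071402 on chromosome 7, lies inside the record listed as MYH7, which the Ensembl name table calls MYH6. It had 116, 134.02 and 229 CPM in high pigs, against 78.7, 268 and 275 CPM in low pigs. High pig 3 and low pigs 2 and 3 were high and low pig 1 was lowest, so the groups overlapped, with a log2 fold change of -0.37 ± 0.47 and an adjusted p of 0.693. MIR208B counts were 2.33% to 3.95% of those of the MYH7 record, whose own log2 fold change was -0.21 ± 0.36. Without low pig 1 the fold change of MIR208B was -0.74, and without low pig 3 it was -0.02.

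An unnamed record of 83 bases, ENSSSCG00000019541, lies 27396 bases from MIR208B. It had 44.9, 58.3 and 92.4 CPM in high pigs, against 29.2, 158 and 123 CPM in low pigs, with low pig 1 lowest and low pigs 2 and 3 highest, as for MIR208B. Its log2 fold change was -0.64 ± 0.55. It was picked after its values had been seen.

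MIR324 is listed on chromosomes 12 and 3, each time on the opposite strand inside a record named ACADVL, the acyl-CoA dehydrogenase that opens the oxidation of very long fatty acids. The chromosome 12 record had 9.14, 7.76 and 7.69 CPM in high pigs, against 10.8, 12.3 and 10.1 CPM in low pigs. All high pigs lay below all low pigs, and the log2 fold change was -0.41 ± 0.16 with an adjusted p of 0.241. The chromosome 3 record differed from it by at most 3.06% in each library, and the 2 cannot be told apart. The ACADVL records had -0.25 and -0.31. The strand setting of the counting is not named, and the pairs above do not settle it, so MIR324 reads cannot be told from ACADVL reads. MIR1307 had 19.2, 16.3 and 15.1 CPM in high pigs, against 18.04, 17.1 and 20.01 CPM in low pigs, and a log2 fold change of -0.11 ± 0.17.

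The genes that process miRNAs gave no common direction. Of 9 listed records 5 lay below 0, the median log2 fold change was -0.01, and 0 passed by the quasi-likelihood test or DESeq2. These called 0.144% and 6.77% of all records. DGCR8, the RNA-binding partner in the first cut, had -0.35 ± 0.17 with no overlap between groups, while DICER1, the second cutter, had 0.38 ± 0.21 with overlap.

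The single protein-coding entry, the VEGF fragment at 44309586 to 44309657 on chromosome 7, had the largest fold change of the set. VEGF is the main growth factor of blood vessels. The fragment had 21.8, 32.2 and 9.28 CPM in high pigs, against 26.4, 66.9 and 38.8 CPM in low pigs. High pig 2 overlapped low pig 1, and the log2 fold change was -1.03 ± 0.46 with an adjusted p of 0.281. It was -0.68 without low pig 2, also -0.68 without high pig 3, and -1.43 without high pig 2. It lies on the opposite strand inside the record of MRPS18A, a mitochondrial ribosomal protein gene. That record spans 146228 bases, and the fragment's counts were 7.76% to 15.7% of its count. The values of the MRPS18A record therefore cannot be assigned to MRPS18A alone. MRPS18A had 174, 205 and 119.6 CPM in high pigs, against 225, 456 and 328 CPM in low pigs, did not overlap, and had -0.99 ± 0.28 with an adjusted p of 0.155. Of the 53 containing records 0 passed the quasi-likelihood test and MRPS18A alone passed DESeq2, with an adjusted p of 0.0187. The 2 tests called 0.144% and 6.77% of all records.

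The 36 unnamed records held both the highest and many of the lower fold changes. Their median log2 fold change was -0.17, with 26 below 0. Without low pig 3 the median was 0.01 and 17 of 36 lay below 0. Groups did not overlap in 13.9%, beside 24.2% of all records, with 4 records lower in high pigs and 1 higher. The higher one, ENSSSCG00000029963, lies in PDE4DIP, whose product myomegalin anchors signalling enzymes at the Golgi and centrosome. It had 25.8, 24.7 and 22.3 CPM in high pigs, against 19.2, 22.2 and 15.1 CPM in low pigs, with 0.39 ± 0.15 and an adjusted p of 0.232. PDE4DIP itself had 0.36 and likewise did not overlap.

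The lower ones, beside those in RPL27A and NCL, lie in RPL13 and in PABPC4, a poly(A)-binding protein gene. ENSSSCG00000022137 in RPL13 had 19.8, 18.7 and 18.9 CPM in high pigs, against 23.0, 26.0 and 29.8 CPM in low pigs, with -0.45 ± 0.16 and an adjusted p of 0.219, and -0.28 without low pig 3. ENSSSCG00000025504 in PABPC4 had 8.16, 9.65 and 8.90 CPM in high pigs, against 11.5, 10.49 and 11.3 CPM in low pigs, with -0.30 ± 0.15. In both genes the containing record had a fold change of the same sign, -0.35 for RPL13 and -0.25 for PABPC4.

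Outside listed genes, ENSSSCG00000021356 on chromosome 6 had the highest fold change of the 99. It had 22.3, 67.4 and 58.1 CPM in high pigs, against 34.5, 33.9 and 31.7 CPM in low pigs. High pig 1 was the lowest library of all and the other 2 high pigs the highest, with a log2 fold change of 0.57 ± 0.34 and an adjusted p of 0.392. Without high pig 1 it was 0.91, and without high pig 2 it was 0.31. ENSSSCG00000021086 on chromosome 1 had 58.3, 45.8 and 62.0 CPM in high pigs, against 44.7, 49.0 and 35.3 CPM in low pigs, with 0.39 ± 0.16 and an adjusted p of 0.261, and overlapped.

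**Figure D5:**
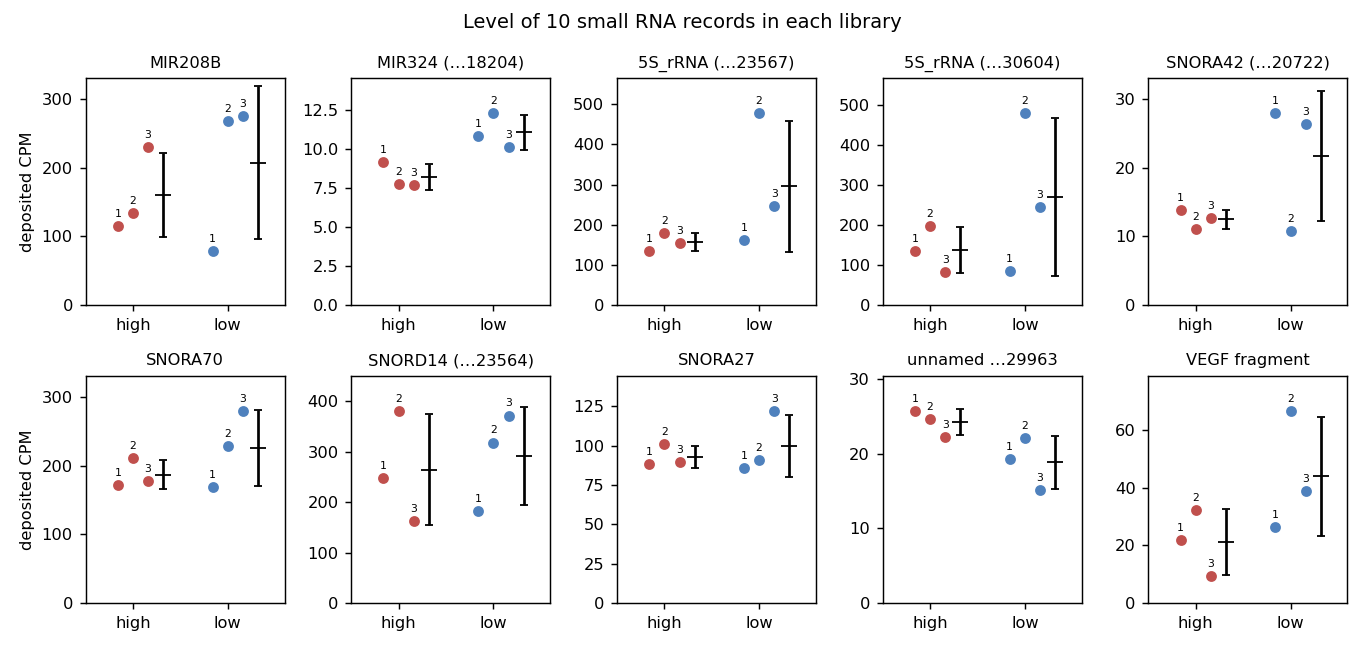
Deposited CPM of 10 small RNA records in each library (high pigs left in red, low pigs right in blue, numbers give the pig, bars the mean and SD of 3). MIR324 and ENSSSCG00000029963 have groups that do not overlap, and in both 5S rRNA panels low pig 2 stands alone near 480 CPM.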

How the data were processed

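Per the labels' protocols, total RNA from fresh longissimus was extracted with TRIzol and made into Illumina TruSeq libraries. FastQC 0.10.1, Trimmomatic 0.22, TopHat2 2.0.4 and BWA 0.6.2 are named in the submitters' processing notes. Neither the read counter and its strand setting nor the genome build is named in the sources used here. The authors deposited raw read counts per gene record, which are whole numbers. The CPM values deposited by the authors are counts per 1000000 reads of a library total. The authors' deposited log2 fold changes run low over high and were turned round. The deposited p-values and false discovery rates belong to these, per the file headers.

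The counts as deposited were fitted over all 7661 records with edgeR 4.0.16 (R 4.3.3): TMM factors, filterByExpr, quasi-likelihood F-test without covariates, Benjamini-Hochberg adjustment, threshold 0.05, two-sided. The standard error of a log2 fold change was taken as its size over the square root of F. CPM values are as deposited, without TMM factors. DESeq2 1.42.0, limma 3.58.1 with voom, edgeR's exact test, other scaling factors and filters, and leaving out each library were tried as alternatives. The fits were tested on simulated counts. A containing record is a longer record whose coordinates enclose the small one. Records were named by these rules: groups that do not overlap (up to 8 per direction), the lowest unadjusted p-values (up to 5 per direction), the 3 highest mean CPM of each class, and listed muscle or fat miRNAs. Others are said to be chosen after their values were seen or stand as examples of their gene. The members and gene lists were chosen with earlier results of these data known. Of the 99 records, 60 were named by the table, 3 by the Ensembl name table and 36 by neither. Sequences were not used here. 1 gene that contains small RNA records is not reported here by name.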

Additional observations from a re-analysis of the deposited data

How the results depend on the processing

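The count of 0 of 99 small RNA records past the threshold held under every alternative run, including 0.1 as the threshold and each library left out; without low pig 1 and in edgeR's exact test, 5S_rRNA (ENSSSCG00000023567) had adjusted p-values of 0.0809 and 0.0819. Over all records the 11 calls became 518 with DESeq2, 316 with the exact test, 77 at 0.1 and 1 (without low pig 2) to 30 (without low pig 1) with a library left out. Calls among containing records went to 1 with DESeq2 and 1 with the exact test, and those in the gene lists to 5 with DESeq2. The median log2 fold change of the small RNA records ranged from -0.25 (without low pig 1) to 0.021 (without low pig 3) with a library left out. The mean share of reads was 0.453% in high and 0.526% in low pigs for records under 120 bases, and 0.0896% and 0.120% for those overlapping no other record.

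Same-numbered pigs did not deviate together (correlations 0.118, 0.0312 and -0.0815), so the numbers were not taken as pairs; a fit with the replicate block called 2 of all records and 0 small RNA records. Taking 1 record of each near-identical pair, an alternative added after seeing the data, left the median at -0.15.

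Of the 33 records named by rule, 20 kept the sign of their log2 fold change throughout. With DESeq2 U6 (ENSSSCG00000020211) had 0.00011, and with upper-quartile factors ENSSSCG00000026828 had -0.0099. With single libraries left out, ranges crossing 0 were these: snoZ39 -0.24 to 0.13, snosnR61 -0.35 to 0.080, snoZ196 -0.34 to 0.079, U6 (ENSSSCG00000019261) -0.29 to 0.14, U6 (ENSSSCG00000020211) -0.073 to 0.079, MIR1307 -0.23 to 0.015, SNORA27 -0.20 to 0.14, SNORA21 -0.32 to 0.081, SNORD14 (ENSSSCG00000023564) -0.46 to 0.15, SNORD14 (ENSSSCG00000027624) -0.16 to 0.58, ENSSSCG00000024515 -0.042 to 0.67, ENSSSCG00000026828 -0.14 to 0.25 and ENSSSCG00000027755 -0.29 to 0.077. The causes were not tested. Reads that may be shared with containing records and between near-identical copies limit every value. The lowest count of a record in a library was 160 reads.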
